A study of Mus musculus with 6 samples.

Results

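Chemokine ligands and chemokine receptors were examined in kidney RNA of db/db mice and db/m mice, with 1 Affymetrix array per mouse. The members were every gene whose symbol begins with Ccl, Cxcl, Xcl, Cx3cl, Ccr, Cxcr, Xcr, Cx3cr or Ackr followed by a number and that had a probe set naming it alone. This gave 56 genes, 34 ligands and 22 receptors, of 22180 genes measured. The db/db mice (n = 3) were homozygous for the db mutation of the leptin receptor and diabetic, and their db/m littermates (n = 3) were not diabetic. The labels do not spell out what the m stands for. All 6 animals were males of the C57BL/KsJ background, were bought at 10 weeks of age, were kept on chow for 12 weeks and were killed at 22 weeks. The db mutation is carried by every cell and not by the kidney alone. The labels name the tissue as kidney, and the study's methods name it as renal cortex. Values are log2 signals made by RMA (robust multi-array average, which corrects the background, normalizes the arrays to each other and combines the probes of a probe set), so differences are log2 fold changes. Each gene was read from the probe set with the highest mean among those that name it alone. The labels call the arrays biological replicates.

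Chemokines are small secreted proteins that direct the migration of leukocytes, and they are named by the spacing of their first cysteines (CC, CXC, XC and CX3C). They act through receptors coupled to inhibitory G proteins, while the atypical receptors (Ackr) bind chemokines and remove or relocate them without that signal. In the diabetic kidney the family is known above all for the CCL2 and CCR2 axis, which draws monocytes into the tissue. T cells, NK cells and dendritic cells both make and sense chemokines, so that in whole kidney a chemokine gene can report on the cells present as well as on their state.

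Some arrays stood apart in their cell type markers. In db/db replicate 3 all 8 neutrophil markers were above the other db/db mice, with a list mean of 5.27, against 2.96 and 3.09 in db/db replicates 1 and 2 and 2.89 to 2.98 in db/m mice. Retnlg, which encodes a resistin-like protein of neutrophils, read 8.26 in that mouse and 3.01 to 3.83 in the other 5. In db/m replicate 2 the 5 fat cell markers averaged 4.50, against 3.08 to 3.16 in db/db mice and 3.10 and 3.22 in the other db/m mice. Tissue identity was clear in every array, as the 6 proximal tubule markers averaged 11.06 to 11.18 and the 4 podocyte markers 6.43 to 6.70. All 6 distal tubule and collecting duct markers had higher means in db/db mice (median log2 fold change 0.27), with 0 past an adjusted p under 0.05. Their summed linear signal was 9281 to 10527 in db/db mice and 7910 to 8100 in db/m mice. The part of nephron segments in the chemokine values was not tested. Array medians lay between 3.36 and 3.43. The table has no detection call, so the median of all probe set means, 3.37, is used here as a guide to dim signals, and 12 of the 34 ligands and 13 of the 22 receptors had means below it.

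**Figure D1:**
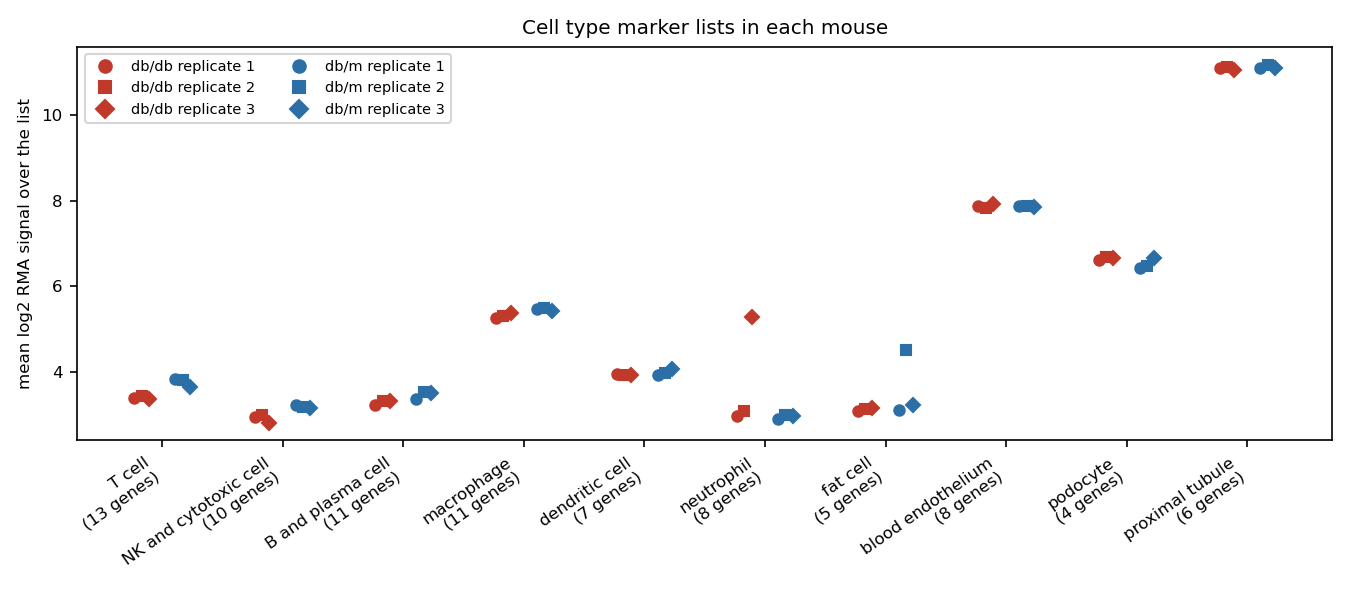
Mean log2 RMA signal of cell type marker lists (y axis) in each mouse, db/db in red and db/m in blue, with 1 point per array. The neutrophil list reached 5.27 in db/db replicate 3 alone and the fat cell list 4.50 in db/m replicate 2 alone, while the T cell list was lower in all 3 db/db mice.

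Promoter sequences are shown for 4 ligands of mouse chromosome 5, since these CXC genes of 1 chromosome gave different values in the arrays. Cxcl13 was the ligand with the highest fold change, Cxcl1 was lower in db/db mice before adjustment, and Cxcl9 and Cxcl10 varied between mice of one group. The windows run from 250 bases before to 50 bases after the RefSeq start of each gene in GRCm38.p6, 5′ to 3′ on the gene's strand, and 42 of the 56 members had such an entry. Capitals mark matches on either strand to the NF-kB motif, to the interferon motif (TTTC, any pair of bases, TTTC), to the GAS motif TTCNNNGAA and to TATAAA. The windows are chr5:95956689-95956988 on the plus strand for Cxcl13, chr5:90890995-90891294 on the plus strand for Cxcl1, chr5:92328030-92328329 on the minus strand for Cxcl9 and chr5:92348840-92349139 on the minus strand for Cxcl10.
Cxcl13: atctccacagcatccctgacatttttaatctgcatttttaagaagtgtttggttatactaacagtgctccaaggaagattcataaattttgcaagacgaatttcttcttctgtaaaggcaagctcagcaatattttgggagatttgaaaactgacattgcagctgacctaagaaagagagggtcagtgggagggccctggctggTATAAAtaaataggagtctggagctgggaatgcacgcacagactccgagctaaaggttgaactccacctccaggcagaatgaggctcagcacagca
Cxcl1: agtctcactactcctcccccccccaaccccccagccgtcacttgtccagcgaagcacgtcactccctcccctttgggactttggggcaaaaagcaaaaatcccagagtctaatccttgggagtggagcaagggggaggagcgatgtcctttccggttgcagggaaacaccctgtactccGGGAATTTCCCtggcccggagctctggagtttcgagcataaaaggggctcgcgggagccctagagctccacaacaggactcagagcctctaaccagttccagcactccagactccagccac
Cxcl9: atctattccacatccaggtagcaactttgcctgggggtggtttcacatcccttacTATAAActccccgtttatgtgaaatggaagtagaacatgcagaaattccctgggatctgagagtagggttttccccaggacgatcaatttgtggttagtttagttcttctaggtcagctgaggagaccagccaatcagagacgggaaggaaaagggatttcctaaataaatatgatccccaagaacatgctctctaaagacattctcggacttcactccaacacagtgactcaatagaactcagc
Cxcl10: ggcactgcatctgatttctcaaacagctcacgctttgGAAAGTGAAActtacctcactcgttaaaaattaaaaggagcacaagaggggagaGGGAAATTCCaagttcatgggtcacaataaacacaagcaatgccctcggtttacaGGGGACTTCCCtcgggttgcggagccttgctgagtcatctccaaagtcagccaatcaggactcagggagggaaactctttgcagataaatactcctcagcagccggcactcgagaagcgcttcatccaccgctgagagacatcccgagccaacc
The Cxcl10 window held an interferon motif that began 213 bases before the start, an NF-kB match that began at 159 and overlapping NF-kB matches that began at 104 and 103. The Cxcl1 window held an NF-kB match at 71 before the start, which overlaps with its match on the other strand at 70. Capitals in Cxcl13 and Cxcl9 mark TATAAA, at 46 and 195 bases before the start. NF-kB matches were present in 8 of 23 ligands with a window, against 8.46% of all 32851 windows of this length. The interferon motif was in 2 ligands (3.44% of all windows), the GAS motif in 2 (8.3%) and TATAAA in 9 (13.6%). Of 19 receptors with a window, 4 held the NF-kB motif, 0 the interferon motif, 2 the GAS motif and 5 TATAAA. A match is a stretch of letters only, and binding was not measured here.

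In db/db kidneys 41 of the 56 chemokine genes had a mean below that of db/m kidneys, and 1 ligand and 1 receptor passed the test. The ligand was Ccl5 and the receptor was Ccr7, and both fell. At a Benjamini-Hochberg adjusted p under 0.05 from limma, 0 of 34 ligands and 0 of 22 receptors were higher, where 0.194% of all genes were, and 1 ligand and 1 receptor were lower, where 0.289% of all genes were. At an unadjusted p under 0.05, 2 ligands and 0 receptors were higher (5.92% of all genes), and 6 ligands and 2 receptors were lower (4.7% of all genes). The methods' thresholds, 1.5-fold or more and p under 0.05 before adjustment, applied with limma's test, were met by 1 ligand that was higher, Cxcl13 (1.02% of all genes), and by Ccl5 and Ccr7 as lower (0.807%).

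The log2 fold change (db/db minus db/m) was negative in 26 of 34 ligands (76.5%) and 15 of 22 receptors (68.2%), against 48.8% of all genes. Its median was -0.15 over the ligands and -0.04 over the receptors, against 0.00 over all genes, and the ligands ran from -1.18 (Ccl5) to 0.59 (Cxcl13). The count of negative ligands was 26 or 27 and that of receptors 15 or 16 under other scalings of the arrays. With 1 array left out it ran from 23 to 28 for ligands and from 11 to 17 for receptors. The receptor median was -0.10 without db/db replicate 3 and -0.07 without db/m replicate 2, but -0.0047 without db/db replicate 1. In that last fit 11 of 22 receptors (50%) were negative, against 47.9% of all genes. All 3 db/db mice lay below all 3 db/m mice for 6 ligands and 3 receptors, where 7.62% of all genes did, and above them for 2 ligands and 1 receptor, where 9.17% did. Among CC ligands 15 of 19 had negative fold changes, and among CXC ligands 9 of 13 did, with medians of -0.14 and -0.06.

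**Figure D2:**
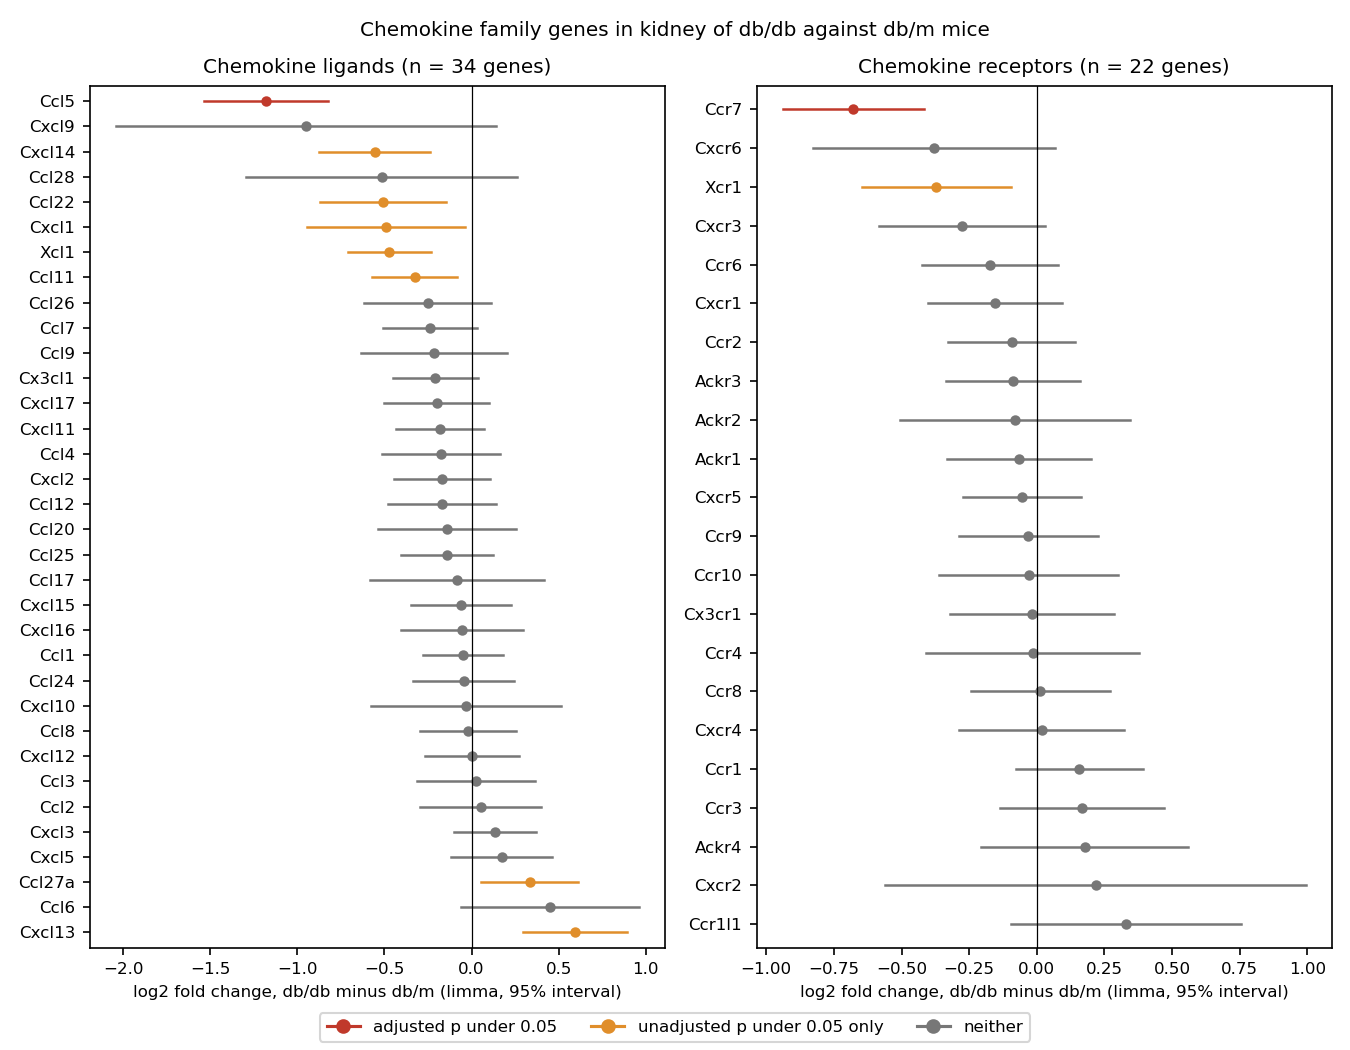
Log2 fold change of each member (x axis, db/db minus db/m, point) with its 95% interval from limma (line), for 34 ligands on the left and 22 receptors on the right. Ccl5 at -1.18 and Ccr7 at -0.68, in red, are the members past an adjusted p under 0.05, and 8 others in orange passed before adjustment only.

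Ccl5 (gene 20304, chromosome 11), also called RANTES, is a CC chemokine made by activated T cells and NK cells that attracts T cells and monocytes. Its log2 signal was 5.22, 5.58 and 5.0 in the db/db mice, against 6.30, 6.43 and 6.62 in the db/m mice. The groups were well apart, with a gap between the highest db/db mouse and the lowest db/m mouse that is larger than the spread within either group. The mean was 5.27 ± 0.29 in db/db mice and 6.45 ± 0.16 in db/m mice (SD, n = 3 each), a log2 fold change of -1.18 (standard error 0.16, limma adjusted p = 0.0162), which is 2.27 times lower. In bulk tissue, fewer cells that make Ccl5 and less Ccl5 RNA per cell cannot be told apart. The adjusted p from limma was 0.0529 without db/db replicate 3, which carried the neutrophil markers, 0.0507 without db/m replicate 2, which carried the fat cell markers, 0.0842 without db/db replicate 1 and 0.084 without db/m replicate 3. The log2 fold change stayed between -1.34 and -1.05 in the fits that leave out 1 array.

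Ccr7 (gene 12775, chromosome 11) is the receptor that brings naive T cells and mature dendritic cells to lymph nodes along CCL19 and CCL21. Its log2 signal was 3.83, 3.70 and 3.94 in the db/db mice, against 4.64, 4.48 and 4.38 in the db/m mice. Again all db/db mice were below all db/m mice, and the db/db values approached the dim part of the table. The log2 fold change was -0.68 (standard error 0.12, limma adjusted p = 0.0466), or 1.6 times lower. Ccr7 did not pass in any fit that leaves out 1 array, with adjusted p from 0.0852 (without db/m replicate 3) to 0.184 (without db/db replicate 1). The study names both Ccl5 and Ccr7 among its own results, which were drawn from these arrays, so neither direction has separate support. With the replicate number as a block its adjusted p was 0.111. Its ligands Ccl19 and Ccl21 are named only by probe sets that name several genes, and were not analysed here.

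**Figure D3:**
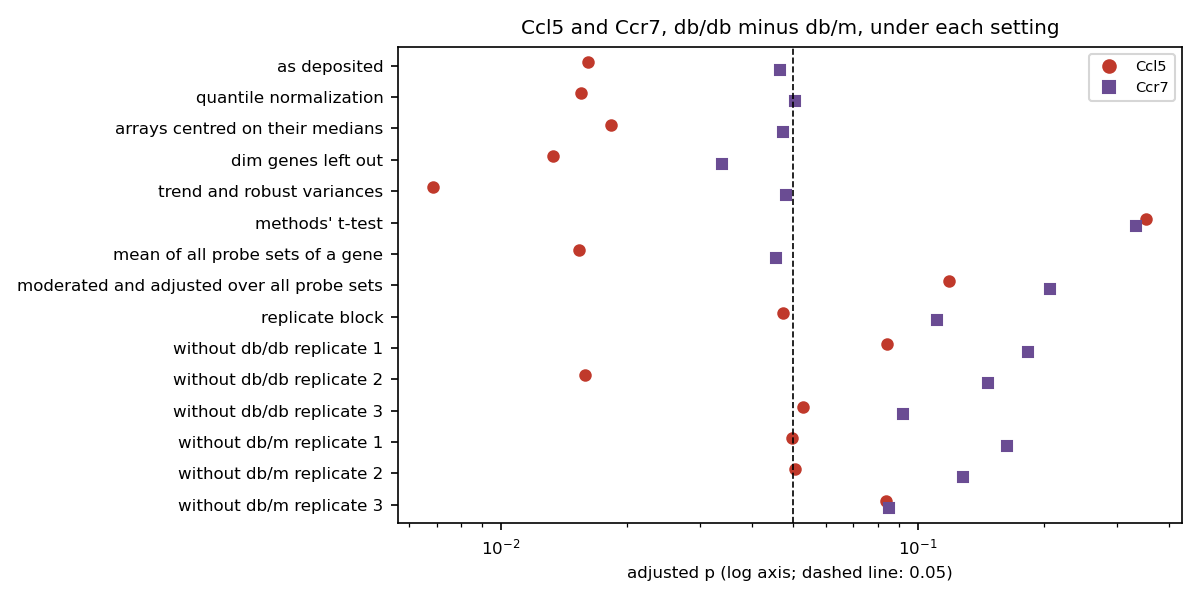
Adjusted p of Ccl5 (circles) and Ccr7 (squares) on a log axis under each setting of the analysis, with the threshold of 0.05 as a dashed line. Ccl5 was past the threshold as deposited (0.0162) but not without db/db replicate 1 (0.0842), and Ccr7 was near the line as deposited (0.0466) and beyond it in all fits that leave out 1 array.

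T cell markers read lower in the same mice in which Ccl5 and Ccr7 did. Of 13 measured T cell markers, 12 had negative fold changes, against 48.8% of all genes, and the median was -0.25. Before adjustment, limma's p was under 0.05 for 5 that were lower (4.7% of all genes). At an adjusted p under 0.05, 1 was lower (0.289% of all genes). That gene was Cd3e, which encodes the epsilon chain of CD3, at 4.16, 4.32 and 4.11 in db/db mice, against 5.30, 4.87 and 4.85 in db/m mice (log2 fold change -0.81, limma adjusted p = 0.0484). The summed linear signal of the list was 144 to 153 in db/db mice and 176 to 213 in db/m mice, and 5 of the 13 markers had means below 3.37. Cd3g and the dim Cd4 had the lowest p of the markers that did not pass. Their log2 fold changes were -0.79 and -0.37 (limma adjusted p = 0.0889 and 0.197). Cd8a and Cd8b1, the chains of the CD8 coreceptor, had log2 fold changes of -0.77 and -0.80 (limma adjusted p = 0.205 and 0.232). Of 10 NK and cytotoxic cell markers, 9 were negative and 0 passed, with a summed signal of 91 to 106 in db/db mice and 118 to 139 in db/m mice, and Nkg7, a granule protein of cytotoxic cells, had a log2 fold change of -0.75 (limma adjusted p = 0.125). The part of these cells in the Ccl5 and Ccr7 values was not tested.

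Of the other receptors that bind Ccl5, Ccr1 and Ccr3 were measured, and neither passed. Ccr1, which is found on monocytes and neutrophils, read 2.64, 2.44 and 2.44 in db/db mice, against 2.32, 2.36 and 2.36 in db/m mice. These values do not overlap but lie below the median of the table, and the log2 fold change was 0.16 (95% interval -0.08 to 0.39, limma adjusted p = 0.639). Ccr3, the main receptor of eosinophils, read 1.42, 1.72 and 1.55 in db/db mice and 1.63, 1.24 and 1.32 in db/m mice, which overlap. Its log2 fold change was 0.17 (95% interval -0.14 to 0.47).

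Among members that passed only before adjustment, Cxcl13 was the one ligand with higher signal well above the dim range. Cxcl13 (chromosome 5) guides B cells into follicles through its receptor Cxcr5. Its log2 signal was 6.11, 5.99 and 6.32 in db/db mice, against 5.64, 5.66 and 5.34 in db/m mice. No db/db value reached down to a db/m value. The log2 fold change was 0.59 (standard error 0.13, 1.51-fold, limma adjusted p = 0.121). Cxcr5 had 3.97, 4.03 and 3.93 in db/db mice and 4.01, 4.0 and 4.08 in db/m mice, with a log2 fold change of -0.05 (95% interval -0.27 to 0.16). The 11 B and plasma cell markers had a median log2 fold change of -0.11, with 8 negative and 0 called. Their summed linear signal was 119 to 124 in db/db mice and 130 to 171 in db/m mice. Those sums lay apart through Jchain, the joining chain of antibodies made by plasma cells (log2 fold change -0.84, limma adjusted p = 0.260), and without it they overlapped, at 93 to 106 in db/db mice and 101 to 117 in db/m mice. The part of these cells in the Cxcl13 value was not tested.

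Xcl1 and Xcr1, a ligand and its receptor, were both lower before adjustment. Xcl1 (lymphotactin, chromosome 1) is secreted by NK cells and CD8 T cells and acts on dendritic cells that bear Xcr1 (chromosome 9). Xcl1 read 3.35, 3.30 and 3.22 in db/db mice, against 3.74, 3.66 and 3.88 in db/m mice. Xcr1 read 2.65, 2.81 and 2.90 in db/db mice, against 3.30, 3.19 and 2.98 in db/m mice. In neither gene did the groups overlap. The log2 fold changes were -0.47 for Xcl1 (standard error 0.11, limma adjusted p = 0.127) and -0.37 for Xcr1 (standard error 0.12, limma adjusted p = 0.305). Both lay near or under the median of the table, and the 7 dendritic cell markers had a median of -0.04 with 0 called.

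Cxcl14 (chromosome 13), a chemokine of epithelia whose receptor is not settled, read 6.78, 6.54 and 6.38 in db/db mice, against 7.26, 6.91 and 7.20 in db/m mice. The groups did not overlap, and the log2 fold change was -0.56 (standard error 0.14, limma adjusted p = 0.166). Ccl22, a product of macrophages and dendritic cells that attracts regulatory T cells through Ccr4, read 2.51, 2.53 and 2.23 in db/db mice and 2.84, 2.69 and 3.27 in db/m mice. These are dim values, with a log2 fold change of -0.51 (limma adjusted p = 0.281), and Ccr4 itself had a log2 fold change of -0.02 (95% interval -0.41 to 0.38). Ccl11 (eotaxin, a ligand of Ccr3) read 3.75, 3.61 and 3.87 in db/db mice and 4.12, 4.01 and 4.07 in db/m mice, with a log2 fold change of -0.33 (limma adjusted p = 0.306).

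Ccl27a, a chemokine of skin epithelium that acts on Ccr10, read 3.94, 3.80 and 3.65 in db/db mice and 3.30, 3.61 and 3.48 in db/m mice. Its log2 fold change was 0.33 (limma adjusted p = 0.374), but a dimmer probe set that also names Ccl27a alone gave 0.06. The gene has near-identical copies, so its value is uncertain, and it was the only member with several probe sets of its own.

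**Figure D4:**
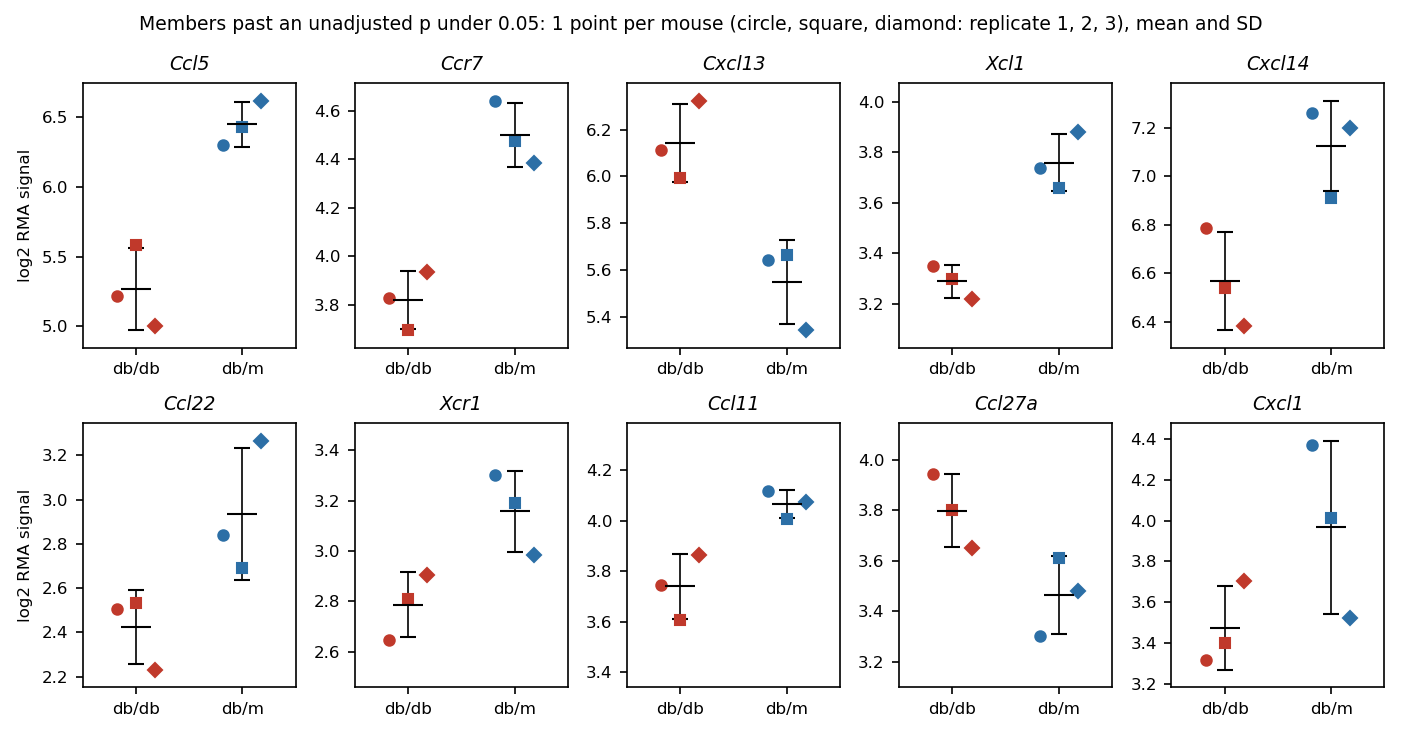
Log2 RMA signal (y axis) of the 10 members with an unadjusted p under 0.05, with 1 point per mouse, db/db left and db/m right, and the mean and SD (n = 3) as bars. Cxcl13 and Ccl27a were higher in db/db mice and the other 8 lower.

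In the CCL2 and CCR2 axis the groups overlapped. Ccl2, the main monocyte attractant, read 3.85, 3.90 and 3.77 in db/db mice, against 3.57, 3.65 and 4.15 in db/m mice. The db/m mice spanned the db/db mice through db/m replicate 3 alone, as the other db/m mice lay below every db/db mouse. The log2 fold change was 0.05 (95% interval -0.30 to 0.40, limma adjusted p = 0.932). It was 0.23 without db/m replicate 3 (limma adjusted p = 0.457) and -0.06 without db/m replicate 1 (0.931). Ccr2, its receptor on inflammatory monocytes, read 3.0, 3.16 and 3.13 in db/db mice and 3.27, 3.16 and 3.14 in db/m mice, with a log2 fold change of -0.09 (95% interval -0.33 to 0.14). Of 11 macrophage markers 10 were negative, with a list median of -0.21 and 0 called. Csf1r, the receptor for macrophage colony-stimulating factor, had a log2 fold change of -0.48 (limma adjusted p = 0.146). Without db/m replicate 2 the list median was -0.08, with 8 of 11 negative. Summed over the macrophage list, the linear signal was 763 to 870 in db/db mice and 832 to 845 in db/m mice. Mertk, a receptor for the uptake of dead cells, was the one marker with a positive value (log2 fold change 0.31, limma adjusted p = 0.306). Without it the sums were 439 to 508 in db/db mice and 541 to 576 in db/m mice, which do not overlap. Mertk was left out after its value was seen, and leaving out the one positive marker favours lower sums in db/db mice. The gap between those sums is therefore no separate result. The part of macrophages in the Ccl2 and Ccr2 values was not tested.

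Cx3cl1 (fractalkine), a chemokine anchored in the membrane of endothelium and tubule cells, read 7.72, 7.86 and 7.74 in db/db mice, against 8.0, 7.85 and 8.09 in db/m mice. A db/m mouse lay within the db/db range, and the log2 fold change was -0.21 (95% interval -0.45 to 0.03). Cx3cr1, its receptor on kidney macrophages, read 6.03, 6.15 and 5.83 in db/db mice and 6.06, 6.20 and 5.81 in db/m mice. This is nearly the same set of values in each group, with a log2 fold change of -0.02 (95% interval -0.32 to 0.28).

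Cxcl12, a stromal chemokine that retains progenitor cells and lymphocytes, read 8.74, 8.86 and 8.61 in db/db mice and 8.91, 8.62 and 8.68 in db/m mice, with a log2 fold change of 0.00 (95% interval -0.27 to 0.27). Its signalling receptor Cxcr4 read 6.09, 6.23 and 5.89 in db/db mice and 6.04, 5.87 and 6.25 in db/m mice. The atypical receptor Ackr3, which takes up Cxcl12, read 5.42, 5.33 and 5.52 in db/db mice and 5.64, 5.46 and 5.42 in db/m mice. All 3 genes of this axis lay above the median of the table, and their groups overlapped. Cxcr4 and Ackr3 had log2 fold changes of 0.02 (95% interval -0.29 to 0.32) and -0.09 (95% interval -0.34 to 0.16).

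The interferon-induced ligands Cxcl9 and Cxcl10, which attract activated T cells through Cxcr3, varied more between mice of a group. Cxcl9 read 6.14, 4.45 and 4.11 in db/db mice, against 5.40, 5.59 and 6.56 in db/m mice. In db/db mice replicate 1 was high and the other mice were below every db/m mouse, so the groups overlapped through 1 animal. The log2 fold change was -0.95 (standard error 0.49, limma adjusted p = 0.535), and it passed in no fit that leaves out 1 array. It was -1.57 without db/db replicate 1 (limma adjusted p = 0.167), -0.55 without db/db replicate 3 (0.806) and -0.60 without db/m replicate 3 (0.740).

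Cxcl10, whose window held the interferon and NF-kB matches, read 6.21, 5.83 and 5.23 in db/db mice and 5.64, 5.57 and 6.15 in db/m mice. The db/db mice had the same order as for Cxcl9, with replicate 1 highest and replicate 3 lowest. Among db/m mice replicate 3 was highest for both genes, while the lowest was replicate 2 for Cxcl10 and replicate 1 for Cxcl9. For Cxcl10 the log2 fold change was -0.03 (95% interval -0.58 to 0.51), and it was 0.23 without db/db replicate 3. Cxcr3 read 4.29, 4.31 and 3.97 in db/db mice and 4.28, 4.49 and 4.62 in db/m mice, with a log2 fold change of -0.28 (95% interval -0.58 to 0.03, limma adjusted p = 0.519), which was -0.16 without db/db replicate 3.

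In the neutrophil axis 1 animal stood apart. Cxcl1, a neutrophil attractant whose window held an NF-kB match, read 3.32, 3.40 and 3.70 in db/db mice, against 4.37, 4.01 and 3.52 in db/m mice. The groups overlapped, and the log2 fold change was -0.49 (limma adjusted p = 0.428). Without db/m replicate 3 it was -0.72 and without db/m replicate 1 it was -0.29. Cxcl2, its close relative, read 2.54, 2.67 and 2.92 in db/db mice and 2.83, 2.95 and 2.85 in db/m mice, all below the median of the table.

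Cxcr2, their receptor on neutrophils, read 3.90, 4.38 and 5.54 in db/db mice, against 4.15, 4.63 and 4.39 in db/m mice. Only db/db replicate 3 was high, the mouse with raised neutrophil markers, and the part of those cells in its Cxcr2 value was not tested. The log2 fold change was 0.22 (95% interval -0.56 to 0.99), and it was -0.25 without db/db replicate 3, so its sign rests on that mouse. S100a8, which encodes a calcium-binding protein of neutrophils, read 6.08 in the same animal, against 2.05 and 2.16 in the other db/db mice and 1.89 to 2.06 in db/m mice. The summed linear signal of the 8 neutrophil markers was 65 to 544 in db/db mice and 63 to 67 in db/m mice. Cxcr1, a further receptor for such ligands, read 3.76, 3.65 and 3.86 in db/db mice and 3.88, 3.82 and 4.03 in db/m mice, without a peak in that animal.

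**Figure D5:**
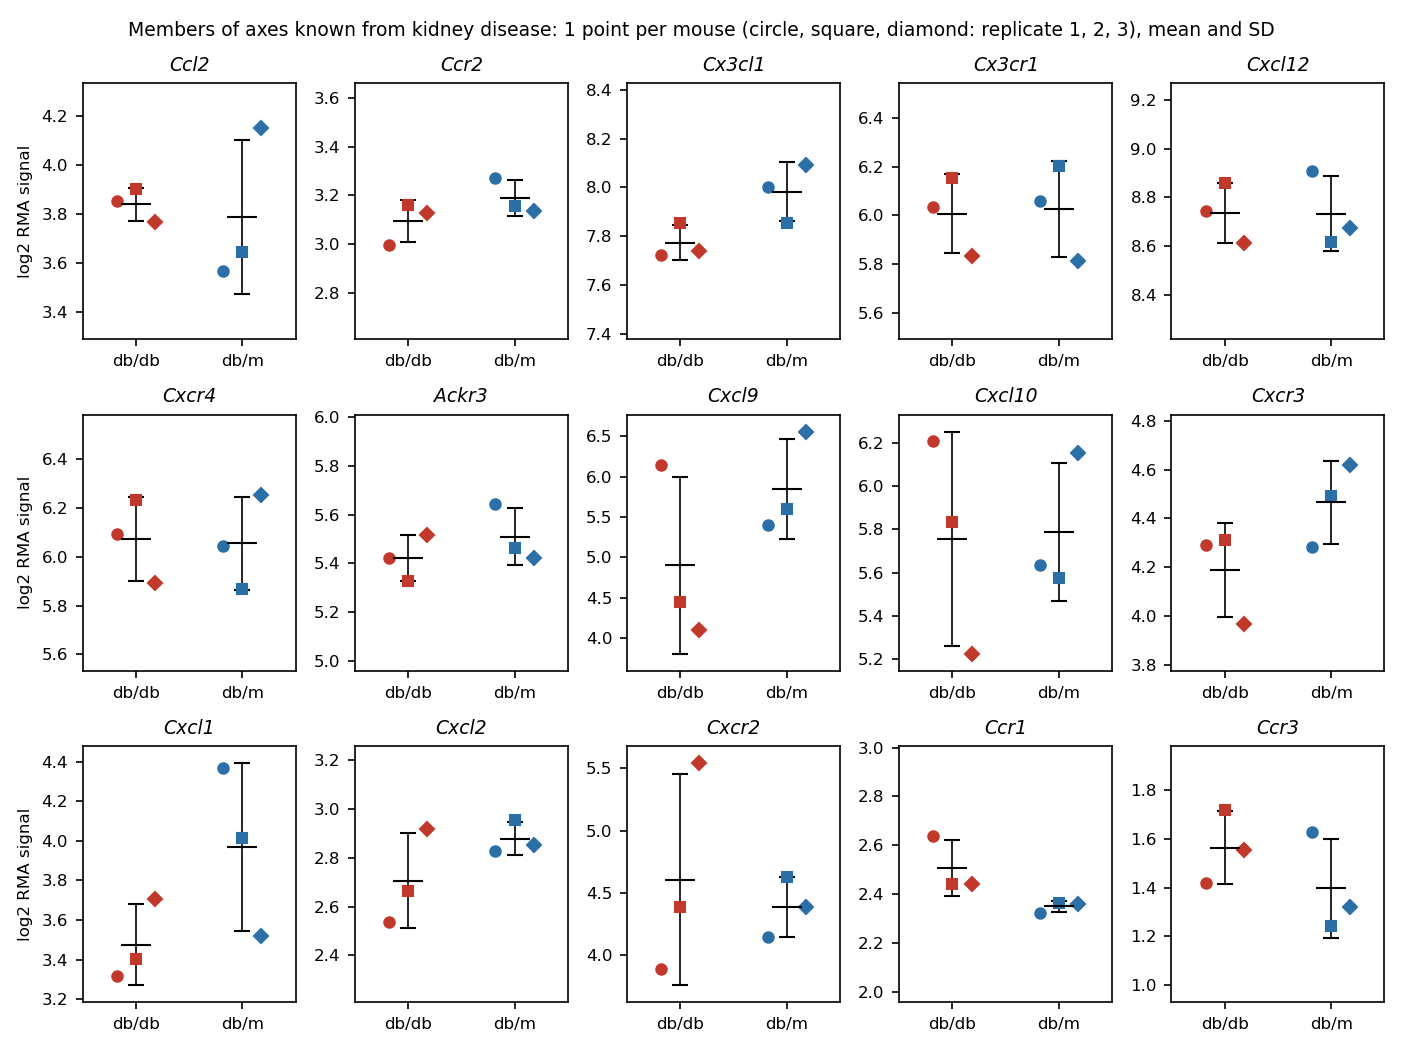
Log2 RMA signal (y axis) of 15 members of axes known from kidney disease, with 1 point per mouse, db/db left and db/m right, and the mean and SD (n = 3) as bars. The Cxcr2 value of 5.54 belongs to db/db replicate 3, and Cxcl9 splits the db/db mice into 1 at 6.14 and the others at 4.45 and 4.11.

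The other 20 ligands had log2 fold changes from -0.52 (Ccl28) to 0.45 (Ccl6), 16 negative and 4 positive, with adjusted p from 0.531 to 0.97 by limma. Ccl28, a mucosal chemokine that acts on Ccr3 and Ccr10, read 5.04, 4.81 and 5.77 in db/db mice and 6.38, 4.95 and 5.83 in db/m mice, a spread of over 1 log2 unit within the db/m mice. Ccl6, a rodent chemokine of macrophages, read 4.87, 4.74 and 4.04 in db/db mice and 3.75, 4.36 and 4.20 in db/m mice. Ccl7, a relative of Ccl2 that shares Ccr2, was the one of these 20 with groups that did not overlap, at 3.46, 3.48 and 3.30 in db/db mice and 3.84, 3.53 and 3.58 in db/m mice. Cxcl16, the ligand of Cxcr6, is made by tubule and endothelial cells and had a bright signal of 7.96, 8.06 and 7.93 in db/db mice and 8.34, 7.71 and 8.06 in db/m mice (log2 fold change -0.05, 95% interval -0.40 to 0.29).

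Ccl3 and Ccl4, inflammatory ligands made by macrophages and T cells, had log2 fold changes of 0.02 and -0.18. Ccl8 and Ccl12, which act on monocytes, had -0.02 and -0.17, and Ccl9, a mouse chemokine of myeloid cells, had -0.22. Among ligands that act mainly at other sites, Ccl25 of the gut and thymus had -0.14, Ccl20, the ligand of Ccr6, had -0.14, and Ccl17, which shares Ccr4 with Ccl22, had -0.08. Cxcl5 and Cxcl3, further ligands of Cxcr2, had 0.17 and 0.13. The remaining log2 fold changes were -0.18 for Cxcl11 (a transcribed pseudogene in the RefSeq annotation), -0.25 for Ccl26, -0.20 for Cxcl17, -0.06 for Cxcl15, -0.05 for Ccl1 and -0.05 for Ccl24.

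The other 12 receptors had log2 fold changes from -0.38 (Cxcr6) to 0.33 (Ccr1l1), 9 negative and 3 positive, with adjusted p from 0.548 to 0.983 by limma. Cxcr6, a receptor of resident T and NK cells, read 2.42, 2.02 and 1.97 in db/db mice and 2.44, 2.94 and 2.17 in db/m mice, which overlap below the median of the table. Ccr6, the Ccl20 receptor of B cells and Th17 cells, was the one with groups that did not overlap, at 3.15, 2.94 and 3.23 in db/db mice and 3.32, 3.23 and 3.29 in db/m mice, where the closest values differ by far less than the spread. Ackr2, a scavenger of inflammatory CC chemokines, read 4.24, 4.66 and 5.01 in db/db mice and 4.50, 4.88 and 4.77 in db/m mice. Ackr1 and Ackr4, which bind chemokines on endothelium and stroma, had log2 fold changes of -0.07 and 0.18 at dim signals. Ccr8, Ccr9 and Ccr10, receptors of T cells of skin and gut, had 0.01, -0.03 and -0.03.

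Values varied among members of the same chromosome. Of 12 ligands on chromosome 11, 9 had values below 0 on the log2 fold scale, and the median of all 12 was -0.11, Ccl5 and Ccl11 being those past an unadjusted p under 0.05. Of 11 ligands on chromosome 5, 8 were negative and the median of all 11 was -0.06, with Cxcl13 highest and Cxcl9 lowest. Of 13 receptors on chromosome 9, 8 were negative and the median of all 13 was -0.02, and Xcr1 was the one past an unadjusted p under 0.05.

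Other genes of the chemokine system were taken from 7 lists, in which 65 of 75 listed genes were measured and 0 passed in either direction. Before adjustment, limma's p was under 0.05 for 5 that were higher (5.92% of all genes) and 3 that were lower (4.7% of all genes). Pooled over the lists, these shares lie near those of all genes, so the counts are no result about the lists. The spread of these genes over the lists was looked at afterwards and was not tested. Of those higher, 3 were among the 6 proteases that cleave chemokines, and all 3 that were lower were among the 14 genes of receptor signalling. Among genes of receptor signalling, 9 of 14 were negative and the list median was -0.07, and Prex1, an exchange factor that activates Rac, was at -0.41 on the log2 scale (limma adjusted p = 0.221). Dock2, an activator of Rac in lymphocyte migration, had -0.41 (adjusted p = 0.403). The proteases that cleave chemokines had a median of 0.35 with 5 of 6 positive, but 0.15 with 3 of 6 positive without db/db replicate 3, the mouse with raised neutrophil markers. The genes that changed sign were Mmp9 and Adam10, the latter only from 0.08 to -0.01. Dpp4, Adam17 and Mmp2 (log2 fold change 0.29, limma adjusted p = 0.312) had all 3 db/db mice above all 3 db/m mice, as 9.17% of all genes did. Mmp9, a gelatinase that neutrophils carry, read 3.60, 3.85 and 5.37 in db/db mice and 3.76, 3.99 and 3.89 in db/m mice, so that its positive value rests on that mouse. Dpp4, which trims the ends of many chemokines and is abundant in the brush border, read 8.73, 8.73 and 8.75 in db/db mice and 8.43, 8.48 and 8.04 in db/m mice (log2 fold change 0.42, adjusted p = 0.279). Adam17, a sheddase of Cx3cl1, was at 0.41 on the same scale (adjusted p = 0.306).

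In the list of genes that induce chemokines or regulate that induction, inhibitors of NF-kB among them, 9 of 13 were negative. The list median was -0.07, or -0.03 without db/db replicate 3. It was 0.01 without db/db replicate 1 and 0.03 without db/m replicate 3, each with 7 of 13 positive, so its sign depends on single arrays. Tnfaip3, an inhibitor of NF-kB that is itself induced by it, read 5.11, 5.19 and 5.63 in db/db mice and 4.70, 4.48 and 4.77 in db/m mice. Those groups did not overlap, with a log2 fold change of 0.66 (limma adjusted p = 0.133), and Ifng, which induces Cxcl9 and Cxcl10, had -0.24 (limma adjusted p = 0.491). Chemoattractants with other symbols included Mif, a cytokine that binds Cxcr2 and Cxcr4, with a log2 fold change of 0.30 (limma adjusted p = 0.306), and Ppbp, a CXC chemokine of platelets. Ppbp read 6.90, 6.85 and 9.10 in db/db mice and 6.87, 6.82 and 6.66 in db/m mice, so that db/db replicate 3 alone was high, as for Cxcr2.

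Receptors of related chemoattractants had 5 of 6 positive values and 0 calls, and Fpr2, a formyl peptide receptor of neutrophils, read 3.82 in db/db replicate 3, against 2.83 and 2.61 in the other db/db mice and 2.16 to 2.72 in db/m mice. In the lists of receptor desensitization and leukocyte adhesion 5 of 10 and 7 of 12 genes were negative, with medians of 0.02 and -0.02. Rgs2, which limits G protein signals, had a log2 fold change of 0.26, and Itgal, a chain of the lymphocyte integrin LFA-1, had -0.22, with adjusted p of 0.582 and 0.54 by limma.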

How the data were processed

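The authors deposited 1 table of log2 signals, made by RMA in Affymetrix Expression Console per the labels, with 41345 probe sets and 1 array for each of 6 mice. Versions, filters and a genome build are not given in the sources used here. The methods name another array than the one whose annotation fits the numeric probe sets, and names came from that annotation: 23521 probe sets name 1 gene, 1820 several and 16004 none here. Gene identifiers matched RefSeq GRCm38.p6 for 23328 probe sets, and 0 symbols changed. Columns of other samples numbered 0. No signal was filtered or normalized again.

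Groups were compared with limma 3.58.1 in R 4.3.3 (lmFit and eBayes, db/db minus db/m, no covariate), with Benjamini-Hochberg adjustment over 22180 genes. Errors of means are SDs, errors of fold changes standard errors and intervals 95%, all from 3 arrays per group, whose number limits the precision. The fit was tested on simulated data. Members, lists and the rule for named genes were chosen with earlier results of these data known. The rule takes members past p under 0.05, the partners of those past the adjusted threshold, and axes known from kidney disease, and of other lists the called genes and up to 2 further genes with the lowest p. Cxcr5, Ccr4, Cxcr1, Cd8a, Cd8b1, Retnlg, S100a8, Ppbp, Mmp9, Mmp2, Adam10 and other members with values were named outside it, after their values were seen. Of 33 probe sets that name several genes with a family symbol among them, covering 7 symbols with no other probe set, no values are given. List values without 1 array (differences of group means) or without 1 gene were added after the data were seen.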

Additional observations from a re-analysis of the deposited data

How the results depend on the processing

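All fits kept Ccl5 and Ccr7 lower in db/db mice. Ccl5 passed the adjusted threshold in 8 of 14 alternatives and Ccr7 in 4 of 14. Leaving out 1 array gave 0 to 1 ligands and 0 receptors called lower, 8 to 26 genes of all called higher and 20 to 43 called lower. It moved the ligand median from -0.19 to -0.12 and the receptor median from -0.10 to -0.0047. With quantile normalization 0 receptors were called lower. The methods' t-test with Benjamini-Hochberg adjustment called 0 ligands and 0 receptors lower, and 0 genes higher and 2 lower over all genes. Moderation and adjustment over all probe sets called 0 ligands and 0 receptors lower, and 0 genes higher and 9 lower. At an adjusted p under 0.1, 96 genes were higher and 97 lower. The methods' thresholds, applied with limma's test to 1 probe set per gene, gave 227 genes higher and 179 lower, with 1 ligand higher. Without dim genes the receptor median was -0.079. The cause of these changes was not tested. Ccl2, Cx3cr1, Cxcl10, Cxcl12, Cxcr4 and Cxcr2, which passed under none of the settings, changed sign under at least 1 of them.

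The same replicate numbers do not pair the mice. Deviations of same-numbered mice correlated at 0.04, -0.05 and -0.08, and not every mouse matched its own number best. With the replicate number as a block, 19 genes were higher and 42 lower, with 0 receptors called lower.

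With 3 arrays per group, no detection call and 25 of 56 members at dim signals, small changes of these genes are not resolved.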
